A study of Saccharomyces cerevisiae with 15 samples.

Results

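The GABA use genes of Saccharomyces cerevisiae are UGA4, UGA1, UGA2, GAD1 and UGA3, 5 of the 5656 genes named by probe sets with a single annotated gene on the array. They were chosen by name, as the genes that carry γ-aminobutyrate (GABA) into the cell, break it down, make it or switch its use on. No rule on measured values picked them, although earlier results of these data were known when they were chosen. Messenger RNA levels were measured in bulk cultures of CEN.PK113-7D, a haploid laboratory strain of mating type a (MATa) that needs no supplements to grow, grown in aerobic chemostats where glucose (7.5 g/l) limited growth. The only nitrogen source was asparagine or phenylalanine at 5.0 g/l, proline at 8.8 g/l, leucine at 10.0 g/l or methionine at 11.3 g/l, and each was measured on 3 arrays, which makes 15. Potassium sulfate (6.6 g/l) was present throughout, growth was held at 0.10 per hour by the dilution rate, and temperature and pH were 30 °C and 5.0. No medium is described as holding GABA, and asparagine served as the reference for the other 4 sources.

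GABA is an amino acid that yeast can use as a nitrogen source. It enters through Uga4, a GABA permease, and also through the general amino acid permease Gap1 and the proline permease Put4. Uga1, GABA transaminase, passes its amino group to oxoglutarate, which gives glutamate and succinate semialdehyde, and Uga2, succinate semialdehyde dehydrogenase, oxidises the semialdehyde to succinate. Gad1, glutamate decarboxylase, makes GABA from glutamate, so that Gad1, Uga1 and Uga2 together form the GABA shunt, a way around part of the tricarboxylic acid cycle. Uga3 is a zinc cluster activator that switches UGA4, UGA1 and UGA2 on when GABA is present, together with the coactivator Dal81. UGA4 is also under nitrogen catabolite repression, in which preferred nitrogen sources hold back the GATA activators Gln3 and Gat1.

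Each value is the linear signal intensity of a probe set, a group of oligonucleotides for 1 transcript, on an Affymetrix YG_S98 array. Array medians lay between 38.2 and 55.1, and signals correlated at 0.959 to 0.987 within groups (15 pairs of arrays) and at 0.922 to 0.976 between groups (90 pairs) on the log2 scale. All 6 MATa marker genes had a mean signal above 9.9, the 25th percentile of all signals, and their summed signal was 2091 to 7315 per array. Of 4 MATalpha markers 3 were also above 9.9, with a summed signal of 125 to 228. The 3'/5' signal ratio of actin, which reflects RNA integrity and labelling, was 2.77 ± 0.797 (SD, n = 3) on asparagine, 1.90 ± 0.427 on proline, 2.11 ± 0.285 on leucine, 2.81 ± 0.697 on phenylalanine and 1.76 ± 0.103 on methionine. The mean signal of the hybridisation controls, transcripts added to each sample, was 807 ± 129 (SD, n = 3), 336 ± 61.4, 483 ± 198, 907 ± 579 and 410 ± 38.8 in the same order. The group means of both measures therefore differed between nitrogen sources, although single arrays of several groups overlapped. Whether either measure depends on the source was not tested. The part of both in the results was not tested beyond using each as a covariate. A settings file describes the first phenylalanine array as run again after the scanner was serviced, and the UGA4 and GAD1 differences with phenylalanine are given without it too.

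The 5 members had 11 probe sets, of which 10 passed the filter on low signals, and for each member the brightest on average was used. These were 6698_at for UGA4 (locus YDL210W), 4992_at for UGA1 (YGR019W), 7037_s_at for UGA2 (YBR006W), 9388_at for GAD1 (YMR250W) and 6650_at for UGA3 (YDL170W). UGA1, UGA2 and UGA3 lay above the array's median signal on 15 of 15 arrays, GAD1 on 9 and UGA4 on 2. The signal of a probe set depends on its oligonucleotides as well as on its transcript, so levels are compared between nitrogen sources and not between genes.

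The members moved in different ways. GAD1 was high with asparagine and proline and fell up to 9.60-fold with leucine, where its mean signal of 11.4 was close to 9.9. UGA4 was higher with proline, leucine and methionine than with asparagine. With phenylalanine it was lower on the probe set used, a fall that passed on none of its other probe sets. UGA1 and UGA2 rose above asparagine with methionine, by 1.53-fold and 1.51-fold, and UGA3 with leucine, by 1.70-fold. The rises of UGA2 and UGA3 likewise passed only on the probe set used. In limma's moderated F test over the 5 sources all 5 members passed (adjusted p from 1.97e-06 for GAD1 to 0.0195 for UGA2), where 52.2% of all 7459 probe sets tested also did. RNA came from whole cultures, so fewer cells holding a transcript and less of it per cell cannot be told apart.

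**Figure D1:**
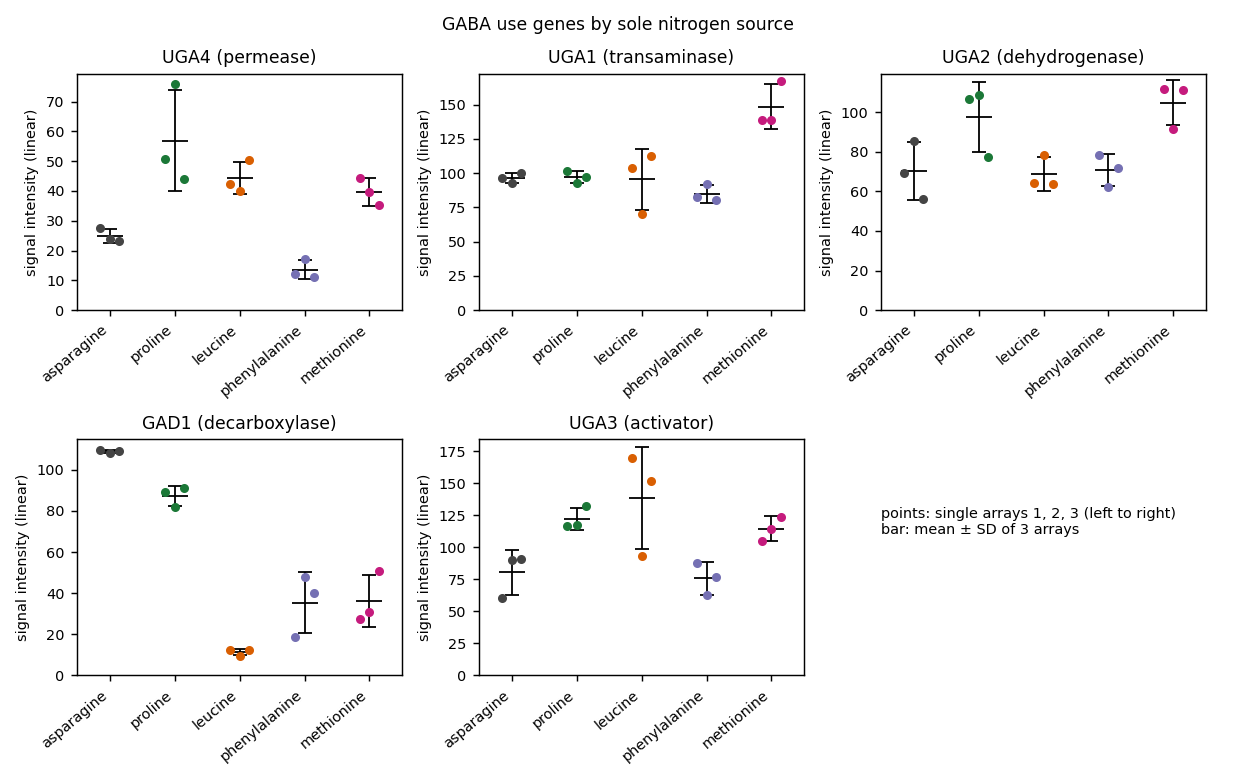
Signal intensity (linear axis from 0) of each GABA use gene on every array, by nitrogen source, with points for the arrays and a bar for the mean of 3. GAD1 sits between 82.0 and 109.6 with asparagine and proline and between 9.5 and 12.5 with leucine, while UGA1 is highest on the 3 methionine arrays.

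Against asparagine, 1 member was higher and 0 lower with proline, where 4.6% of all probe sets were higher and 8.7% lower (13.3% in either direction). With leucine 2 were higher and 1 lower, beside 9.88% and 11% (20.9%) of all probe sets. With phenylalanine 0 were higher and 2 lower, beside 7.55% and 18.1% (25.6%). With methionine 3 were higher and 1 lower, beside 14.3% and 24.2% (38.6%). The median log2 difference of the 5 members was 0.48 on proline, -0.02 on leucine, -0.19 on phenylalanine and 0.59 on methionine, beside -0.08, -0.03, -0.16 and -0.09 for all probe sets tested. These 4 comparisons share the 3 asparagine arrays.

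With leucine 0 members were higher and 1 lower than with proline, where 11.1% of all probe sets were higher and 8.27% lower (19.3% in either direction). With phenylalanine 0 were higher and 3 lower than with proline, beside 8.12% and 12.6% (20.7%), and with methionine 1 was higher and 1 lower than with proline, beside 10.6% and 11.9% (22.6%). Phenylalanine had 1 higher and 2 lower than leucine, beside 4.32% and 8.49% (12.8%). Methionine had 3 higher and 0 lower than leucine, beside 6.94% and 11.8% (18.7%), and likewise 3 and 0 than phenylalanine, beside 12.7% and 9.51% (22.3%). Over the 10 comparisons 25 of 50 differences passed, of which 8 were of GAD1, 7 of UGA4, 4 of UGA1, 3 of UGA2 and 3 of UGA3. Of all probe sets, 12.8% (phenylalanine against leucine) to 38.6% (methionine against asparagine) passed per comparison in either direction. The 10 comparisons reuse the same group means, so the 50 differences are not separate tests. Whether the members passed more often than other probe sets over all comparisons was not tested.

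**Figure D2:**
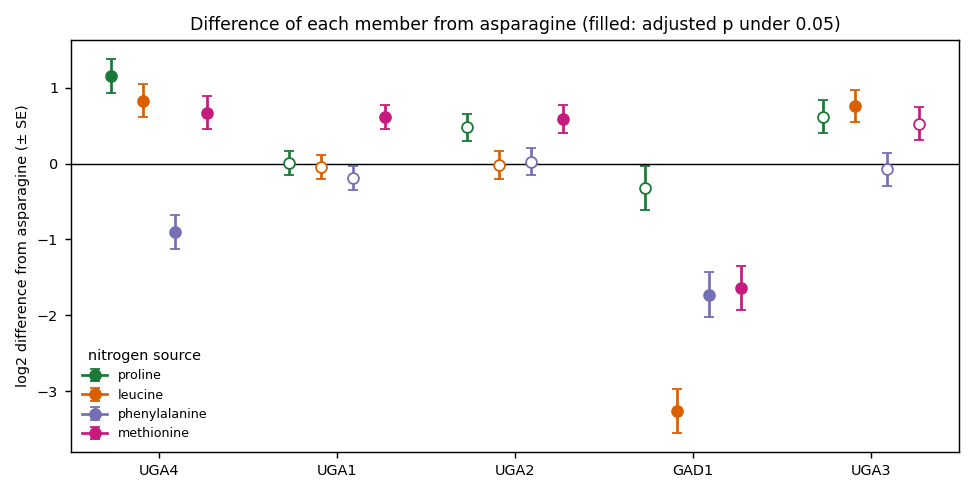
Log2 difference from asparagine of each member with the other 4 nitrogen sources, with standard errors, and filled symbols where the adjusted p was under 0.05. The leucine point of GAD1 lies lowest at -3.26, and the UGA4 points lie on both sides of 0, from -0.90 with phenylalanine to 1.16 with proline.

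UGA4, the permease, had signals of 27.4, 23.9 and 23.2 with asparagine, 50.8, 76.0 and 43.9 with proline, 42.4, 40.1 and 50.4 with leucine, 12.2, 17.1 and 11.2 with phenylalanine and 44.5, 39.5 and 35.2 with methionine. Every proline, leucine and methionine array was above every asparagine array, and every phenylalanine array was below them all. Group means were 24.8 ± 2.25 (SD, n = 3) on asparagine, 56.9 ± 16.9 on proline, 44.3 ± 5.41 on leucine, 13.5 ± 3.16 on phenylalanine and 39.7 ± 4.65 on methionine. Against asparagine the log2 difference, with a standard error of 0.22 throughout, was 1.16 with proline (2.23-fold, limma adjusted p = 0.00358), 0.83 with leucine (1.78-fold, 0.0128) and 0.68 with methionine (1.60-fold, 0.0248). With phenylalanine it was -0.90 (1.87-fold lower, adjusted p = 0.0084).

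The widest gap of UGA4 was that of phenylalanine below proline, by 4.17-fold (log2 -2.06, adjusted p = 6.36e-06). Phenylalanine also lay below leucine, by 3.32-fold (adjusted p = 1e-04), and below methionine, by 2.98-fold (0.000185). In the order proline, leucine, methionine, asparagine and phenylalanine, the neighbours proline and leucine (adjusted p = 0.329) and leucine and methionine (0.656) did not differ beyond their spread, nor did proline and methionine (0.131). With the hybridisation control signal as a covariate, the differences from asparagine with proline (0.79, adjusted p = 0.101), leucine (0.59, 0.0952) and methionine (0.39, 0.248) no longer passed, and with the actin ratio as a covariate that with methionine did not pass either (0.69, 0.0937). The fall with phenylalanine did not pass after quantile normalization (-0.56, 0.0637) or median centring (-0.59, 0.0521) or with only the 6 arrays compared (-0.90, 0.071). Without the first phenylalanine array it was -0.84 (0.0279), and phenylalanine differed from proline by -2.0 (6.31e-05) and from leucine by -1.67 (0.000655), and methionine was 1.52 above phenylalanine (0.00109). Leaving out 1 array ended the call with leucine without the third leucine array (0.74, 0.0639), and that with methionine without the second or the third asparagine array or the first or second methionine array (0.59 to 0.68, adjusted p from 0.0605 to 0.0869).

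UGA4 was measured by 2 more probe sets, and on neither did the fall with phenylalanine pass. The brighter of them has a suffix that marks oligonucleotides shared with other transcripts, so its values are uncertain. The probe set 2411_s_at, whose mean signal of 35.3 was close to the 35.9 of 6698_at, read 10.7, 7.4 and 11.1 with asparagine and 12.7, 13.0 and 17.2 with phenylalanine. It read 51.7, 68.5 and 30.5 with proline, 37.8, 47.4 and 51.6 with leucine and 59.5, 52.2 and 58.6 with methionine. Here both asparagine and phenylalanine were low and did not overlap with the other 3 sources. Because its asparagine mean lay below 9.9, its differences are bounds, at least 4.51-fold higher with proline (adjusted p = 5.3e-05), 4.28-fold with leucine (1.48e-05) and 5.37-fold with methionine (3.04e-06). With phenylalanine its mean was 14.3, at least 1.34-fold above asparagine, a difference that did not pass (adjusted p = 0.137). On the dim probe set 2410_g_at both means lay below 9.9, so no fold is given (0.922). The rise of UGA4 with proline, leucine and methionine thus passed on 6698_at and on 2411_s_at, as did its lower level with phenylalanine than with those sources. On 2410_g_at only methionine passed against asparagine (limma adjusted p = 0.0487), with overlapping arrays. Proline (0.374) and leucine (0.209) did not pass there, nor did phenylalanine against any source. The fall of UGA4 from asparagine to phenylalanine passed on 6698_at and on neither of the others. The log2 signals of 6698_at and 2411_s_at correlated at 0.774 over the 15 arrays.

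**Figure D3:**
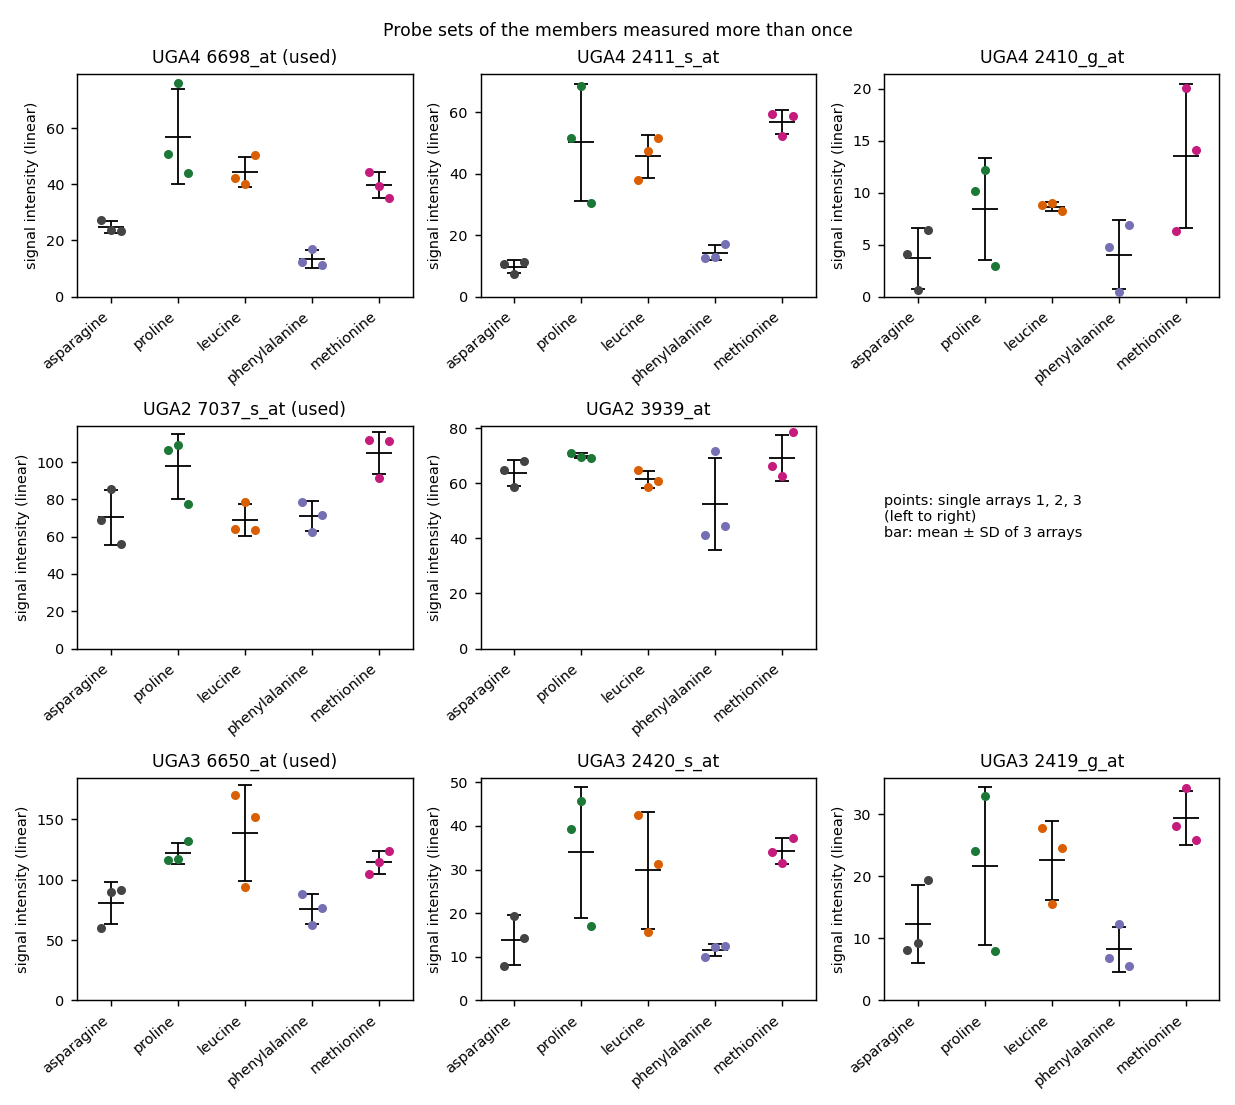
Signal intensity of every tested probe set of UGA4, UGA2 and UGA3 on each array by nitrogen source. Of the UGA4 probe sets, 6698_at reads above 23 with asparagine and 2411_s_at below 12, while both read below 18 with phenylalanine.

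UGA1, the transaminase, was higher with methionine than with each of the other 4 sources. Its signals were 96.7, 92.9 and 99.9 with asparagine, 101.7, 92.5 and 97.5 with proline, 103.5, 70.2 and 112.7 with leucine, 82.4, 92.3 and 80.2 with phenylalanine and 139.0, 139.1 and 167.6 with methionine. The 3 methionine arrays were above all others, and the second leucine array was the lowest of the 15. The methionine mean of 149 ± 16.5 (SD, n = 3) stood against 96.5 ± 3.50 with asparagine, a log2 difference of 0.62 ± 0.16 (SE, 1.53-fold, limma adjusted p = 0.00694). It was also above proline (0.61, adjusted p = 0.0124), leucine (0.66, 0.0109) and phenylalanine (0.80, 0.00271). None of the other 6 pairs passed, and so no neighbours in the order of levels below methionine. The difference between proline and asparagine was 0.01, with a 95% interval from -0.33 to 0.35. With the hybridisation control signal as a covariate, methionine was 0.42 above asparagine (adjusted p = 0.0907) and 0.60 above phenylalanine (0.0504). Without the third methionine array, methionine no longer passed against proline (0.52, 0.0635) or leucine (0.57, 0.0516).

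UGA2, which encodes the dehydrogenase, had the smallest range of the members, 1.52-fold from the lowest to the highest source. Its signals were 69.1, 85.6 and 56.2 with asparagine, 106.6, 109.0 and 77.5 with proline, 64.2, 78.6 and 63.8 with leucine, 78.4, 62.5 and 71.8 with phenylalanine and 111.9, 91.6 and 111.1 with methionine. Methionine did not overlap with asparagine, leucine or phenylalanine, while the third proline array lay among those of asparagine. Methionine, at 105 ± 11.5 (SD, n = 3), was above asparagine, at 70.3 ± 14.7, by 0.59 ± 0.18 (SE, log2, 1.51-fold, limma adjusted p = 0.018). It was above leucine by 0.61 (adjusted p = 0.0308) and above phenylalanine by 0.56 (0.037). Proline had a mean of 97.7 ± 17.5 (SD, n = 3), 0.48 above asparagine (adjusted p = 0.0969), and methionine and proline differed by 0.11 (0.711). In the order methionine, proline, phenylalanine, asparagine and leucine, no neighbours differed beyond their spread.

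The UGA2 result rests on 1 of 2 probe sets. The used one, 7037_s_at, has the same suffix of shared oligonucleotides, so its values are uncertain. The other, 3939_at, differed in none of the 10 comparisons (F test adjusted p = 0.182), with methionine 0.11 above asparagine (0.643), and correlated with the first at 0.240 over the 15 arrays. On 7037_s_at the difference between methionine and asparagine fell to 0.35 with the actin ratio as a covariate (adjusted p = 0.256). It also did not pass with the hybridisation control signal as a covariate (0.59, 0.0625). With the actin ratio the difference from leucine did not pass either (0.51, 0.0634). That from phenylalanine was lost in 11 of 27 alternatives, among them quantile normalization (0.47, 0.0987), median centring (0.46, 0.104), no filter (0.56, 0.0506), array weights (0.53, 0.0848), only the 6 arrays (0.56, 0.0627) and the actin ratio (0.31, 0.422) or hybridisation control signal (0.57, 0.143) as a covariate. The difference from asparagine was lost without the third asparagine array (0.44, adjusted p = 0.0946) and without the first (0.54, 0.0621) or the third (0.55, 0.0612) methionine array. Without either of those 2 methionine arrays the differences from leucine (0.0929 and 0.094) and phenylalanine (0.106 and 0.113) and the F test (0.054 and 0.0556) did not pass either. The difference from leucine was also lost without the first or the third leucine array (0.0907 and 0.095), and that from phenylalanine without the second or the third phenylalanine array (0.0901 and 0.0677). Proline passed against asparagine without the third proline array (0.64, 0.048) or the second asparagine array (0.63, 0.0468), and, without that proline array, also against leucine (0.0291) and phenylalanine (0.0394).

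GAD1, glutamate decarboxylase, had the widest range of the 5 members. Its signals were 109.6, 108.1 and 109.2 with asparagine, 89.1, 82.0 and 91.0 with proline, 12.3, 9.5 and 12.5 with leucine, 18.7, 47.7 and 40 with phenylalanine and 27.3, 30.8 and 50.8 with methionine. The leucine arrays were below all others, the asparagine and proline arrays above all others, and the phenylalanine and methionine arrays overlapped between them. Group means were 109 ± 0.777 (SD, n = 3) on asparagine, 87.4 ± 4.74 on proline, 11.4 ± 1.68 on leucine, 35.5 ± 15 on phenylalanine and 36.3 ± 12.7 on methionine.

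Against asparagine GAD1 fell by 3.26 ± 0.29 (SE) on the log2 scale on leucine (9.60-fold lower, limma adjusted p = 6.96e-07), the 26th largest fall of 7459 probe sets. Its leucine mean of 11.4 lay close to the bound of 9.9, and on 1 array its signal was at or below that array's 25th percentile. The size of the fall with leucine is therefore uncertain. GAD1 fell by 1.73 with phenylalanine (3.31-fold, adjusted p = 0.000608) and by 1.64 with methionine (3.12-fold, 0.000469). Without the first phenylalanine array, the lowest of its group, the fall with phenylalanine was 1.32 on the log2 scale (a difference of -1.32, adjusted p = 0.00131). With proline the difference was -0.32 (adjusted p = 0.515, 95% interval from -0.94 to 0.30), although the arrays of the 2 groups did not overlap. The fit uses 1 spread per gene over all groups, and that of GAD1 was far wider with phenylalanine and methionine than with asparagine. The difference between proline and asparagine passed in none of 27 alternatives (limma adjusted p from 0.0933 to 0.963), which include a fit of only the 6 arrays compared. Why it did not pass was not tested.

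Between the other sources, GAD1 was 7.69-fold lower with leucine than with proline (log2 -2.94, adjusted p = 2.02e-06). It was also lower than with proline with phenylalanine (-1.41, 0.00302) and with methionine (-1.32, 0.00385). Leucine stood below phenylalanine by 2.90-fold (adjusted p = 0.00272) and below methionine by 3.08-fold (0.00161). Phenylalanine and methionine differed by 0.09 (adjusted p = 0.863, 95% interval from -0.53 to 0.71). Without the first phenylalanine array the difference of phenylalanine was -0.999 from proline (adjusted p = 0.00793) and 1.95 from leucine (1e-04), and methionine minus phenylalanine turned from 0.09 to -0.32 (0.343). Phenylalanine against proline did not pass with the hybridisation control signal as a covariate (-1.34, 0.0635), nor phenylalanine against leucine with only the 6 arrays (1.54, 0.0549). Over all 15 arrays the order of means was asparagine, proline, methionine, phenylalanine and leucine, and the differences between asparagine and proline and between methionine and phenylalanine did not pass. Without the first phenylalanine array methionine and phenylalanine changed places.

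The 3 genes whose log2 signals followed GAD1 most closely over the 15 arrays, among 5387 other genes, were HSP26 (r = 0.979), DCS2 (0.964) and MSC1 (0.961). HSP26, a small heat shock protein, had mean signals of 2172 on asparagine, 1707 on proline, 366 on leucine, 889 on phenylalanine and 727 on methionine. MSC1 had 956, 1121, 147, 426 and 338 in the same order, and DCS2, a stress-induced relative of the decapping enzyme Dcs1, had 467, 473, 184, 319 and 290. In all 3 leucine was the lowest source and asparagine or proline the highest. That likeness follows largely from picking them by their correlation with GAD1 over the same arrays. The correlation describes arrays that share their scaling and their groups.

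**Figure D4:**
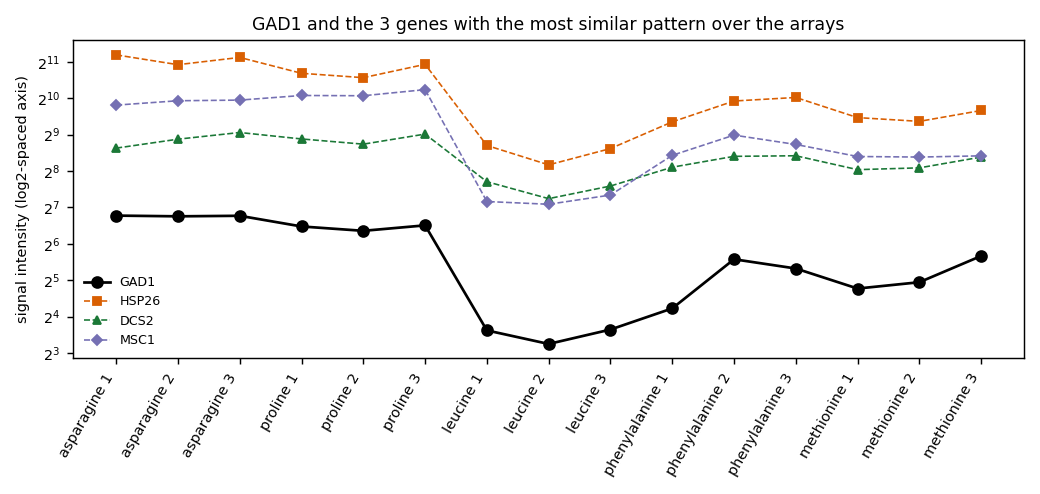
Signal intensity on a log2-spaced axis of GAD1 and the 3 genes with the most similar pattern, on each of the 15 arrays. All 4 lines are lowest on the leucine arrays, and GAD1 drops to 18.7 on the first phenylalanine array.

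UGA3, the activator, had signals of 60.2, 90.1 and 91.1 with asparagine, 116.5, 117.3 and 131.9 with proline, 170.0, 93.6 and 151.7 with leucine, 88.0, 62.7 and 76.7 with phenylalanine and 104.6, 114.7 and 124.0 with methionine. The proline, leucine and methionine arrays all lay above those of asparagine and phenylalanine, which overlapped, and the second leucine array stood apart from the other 2 of its group. Leucine, at 138 ± 39.9 (SD, n = 3), was above asparagine, at 80.5 ± 17.6, by 0.76 ± 0.22 (SE, log2, 1.70-fold, limma adjusted p = 0.0185). Proline, at 122 ± 8.67 (SD, n = 3), differed from asparagine by 0.62 (adjusted p = 0.0686) and methionine, at 114 ± 9.70, by 0.53 (0.0631). Phenylalanine, at 75.8 ± 12.7 (SD, n = 3), was below leucine by 1.79-fold (adjusted p = 0.0188) and below proline by 1.62-fold (0.0318), and differed from asparagine by -0.07 (0.832). In the order leucine, proline, methionine, asparagine and phenylalanine, no neighbours passed the test.

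Which UGA3 differences passed depended on the setting. Leucine against asparagine did not pass with the actin ratio (0.56, adjusted p = 0.0733) or the hybridisation control signal (0.68, 0.0778) as a covariate, or without the first asparagine array (0.57, 0.0988). It was likewise lost without the first (0.59, 0.0975) or the third (0.67, 0.0829) leucine array, as was phenylalanine against leucine (-0.67, 0.092 and -0.75, 0.0824). Phenylalanine against proline was lost without any 1 of the 3 proline arrays or without the second or the third phenylalanine array (adjusted p from 0.0632 to 0.0885). Proline and methionine against asparagine passed after quantile normalization (0.71, 0.0329 and 0.69, 0.0151). They also passed without the second leucine array (0.62, 0.0307 and 0.53, 0.0267), and methionine passed against phenylalanine without that array (0.60, 0.024), the first asparagine array (0.0398) or the first phenylalanine array (0.72, 0.0467). After quantile normalization phenylalanine no longer passed against proline (-0.54, 0.0782) or leucine (-0.66, 0.0569), nor after median centring (-0.52, 0.0849 and -0.61, 0.067). The same held with the actin ratio (-0.39, 0.313 and -0.62, 0.077) and the hybridisation control signal (-0.58, 0.299 and -0.76, 0.0973) as covariates. Against proline it was also lost with no filter (0.054) and with array weights (-0.59, 0.0707), and against leucine with only the 6 arrays (0.109). The dimmer probe set 2420_s_at, whose suffix again marks shared oligonucleotides and which correlated with 6650_at at 0.806, was higher with methionine than with asparagine (1.39, adjusted p = 0.014), with 1.26 for proline (0.0532) and 1.08 for leucine (0.0746). A further probe set, 2419_g_at, was also higher with methionine (1.37, 0.0345), with 0.70 for proline (0.37) and 0.95 for leucine (0.186). Leucine against asparagine thus passed on 6650_at and on neither of these. The probe set 2418_at, with a mean of 2.33, was at or below the 25th percentile on all 15 arrays and was not tested.

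Among themselves, the log2 signals of UGA4 and UGA3 correlated at 0.670 over the 15 arrays, the highest of the 10 pairs. UGA4 correlated with UGA2 at 0.452 and with UGA1 at 0.368, and UGA1 with UGA2 at 0.442. GAD1 ran from -0.350 with UGA3 to 0.151 with UGA2. All of these are descriptions over arrays that share groups and scaling.

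The genes nearest to each member, picked from 5387 others, correlated with it more closely than any other member did. The highest correlations among so many genes exceed those among a few members almost by construction. Whether the members move together cannot be judged from them. Nearest to UGA4 were UBX4, a cofactor of the Cdc48 segregase (r = 0.936), GPP1, a glycerol phosphate phosphatase (0.921), and NAT3, the catalytic subunit of an N-terminal acetyltransferase (0.909). GPP1 had mean signals of 260 on asparagine, 374 on proline, 389 on leucine, 165 on phenylalanine and 348 on methionine. It was picked for its correlation with 6698_at, so its low level with phenylalanine is no separate support for that probe set. Nearest to UGA1 were DBF2, a kinase of mitotic exit (0.895), IAT4 (0.872) and SPE1, ornithine decarboxylase (0.866), and SPE1 rose from 116 with asparagine to 256 with methionine in mean signal. Nearest to UGA2 were RME1, a repressor of meiosis (0.830), HSH155, a splicing factor (0.790), and GDH2, which releases ammonium from glutamate (0.782). Nearest to UGA3 were RCY1, an F-box protein of membrane recycling (0.888), CCT6, a chaperonin subunit (0.885), and PNO1, a ribosome assembly factor (0.850).

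The genes around the pathway were described from 5 lists, all of whose members were tested. Both other permeases that carry GABA were higher than with asparagine with proline, phenylalanine and methionine, and 1 of 2 with leucine. Of all probe sets, 4.6% were higher with proline, 7.55% with phenylalanine, 14.3% with methionine and 9.88% with leucine. GAP1 had a mean signal of 187 ± 34.2 (SD, n = 3) on asparagine, 2000 ± 174 on proline, 2107 ± 42.0 on leucine, 2550 ± 79.1 on phenylalanine and 2790 ± 129 on methionine. Its arrays with asparagine were far below all others, by 10.8-fold against proline (limma adjusted p = 2.04e-11) to 15-fold against methionine (2.82e-12). PUT4 rose less, by 1.57-fold with proline (adjusted p = 0.00657), 1.89-fold with phenylalanine (0.000197) and 1.44-fold with methionine (0.00645), and with leucine the difference was 0.31 on the log2 scale (0.123). With phenylalanine GAP1 was 3.78 and PUT4 0.92 above asparagine on the log2 scale, beside -0.90 for UGA4 on 6698_at.

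Of 6 regulators that act on these genes, 3 were higher on proline than on asparagine, 5 on leucine, 4 on phenylalanine and 3 on methionine, and 0 were lower. Among all probe sets, 4.6%, 9.88%, 7.55% and 14.3% were higher in the same order, and 8.7%, 11%, 18.1% and 24.2% lower. DAL80, a GATA repressor, had a mean signal of 5.77 on asparagine, below 9.9, and 161 on proline, 127 on leucine, 53.5 on phenylalanine and 175 on methionine. It was at least 14.9-fold higher with proline (adjusted p = 1.95e-06) and 4.79-fold with phenylalanine (5.02e-05). GAT1, an activator, rose by 1.25 on the log2 scale with proline (adjusted p = 0.000713) to 2.02 with phenylalanine (1.87e-06). GZF3, a repressor, was also higher with all 4 sources, by 0.61 with phenylalanine (0.00338) to 1.10 with methionine (1.34e-05). GLN3 was higher with leucine (0.90, 0.00958), and DAL81, the partner of Uga3, with leucine (0.59, 0.0053) and phenylalanine (0.50, 0.0148). URE2, which holds Gln3 in the cytoplasm, passed with none of the 4 sources.

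**Figure D5:**
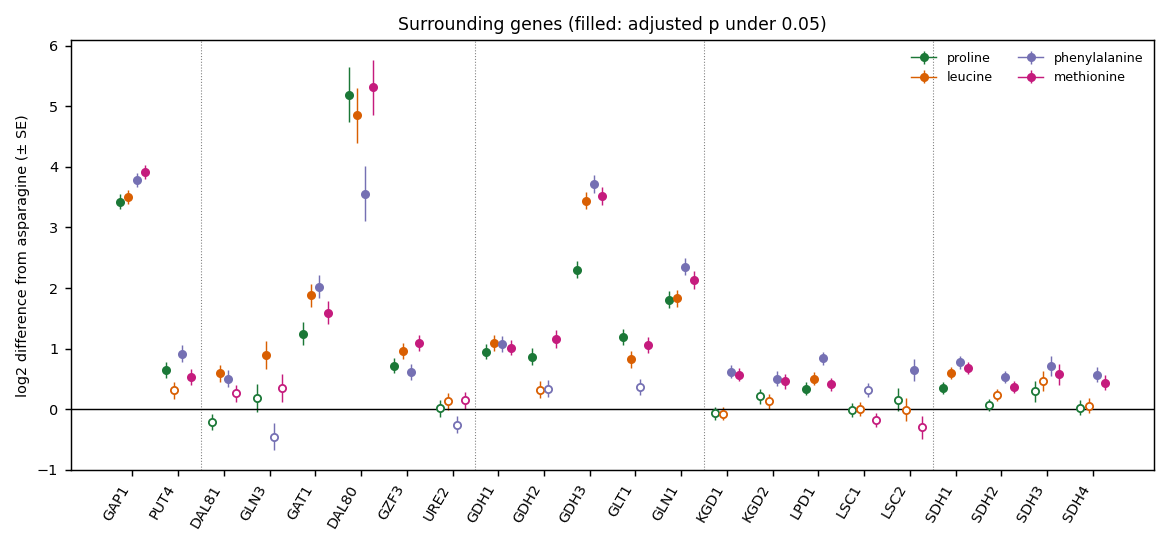
Log2 difference from asparagine, with standard errors, of the genes of the 5 surrounding lists with the other 4 nitrogen sources, with filled symbols where the adjusted p was under 0.05. DAL80, GAP1 and GDH3 lie highest, and LSC1 and URE2 have no filled symbol.

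Of 5 genes that make, use or pass on glutamate, the substrate of Gad1 and product of Uga1, 5 were higher on proline than on asparagine, 4 on leucine, 3 on phenylalanine and 5 on methionine. The shares of all probe sets that were higher were 4.6%, 9.88%, 7.55% and 14.3% in the same order. GDH3, a glutamate dehydrogenase, rose most, by 2.30 with proline (adjusted p = 3.99e-08) to 3.72 with phenylalanine (6.46e-11) on the log2 scale. GLN1, glutamine synthetase, rose by 1.81 with proline (7.21e-07) to 2.35 with phenylalanine (2.02e-08). GDH1, the main NADPH-linked glutamate dehydrogenase, rose by 0.95 to 1.09 over the 4 sources. GLT1, glutamate synthase, rose with proline (1.19, adjusted p = 5.3e-05), leucine (0.82, 0.000383) and methionine (1.06, 2.88e-05) and did not pass with phenylalanine (0.37, 0.0614). GDH2 passed with proline (0.87, 0.00131) and methionine (1.16, 1.91e-05). GDH1, GDH3 and GLN1 were thus higher with each of the 4 sources than with asparagine.

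The step of the tricarboxylic acid cycle that the GABA shunt goes around, from oxoglutarate to succinate, had 5 genes, of which 1 was higher on proline than on asparagine, 1 on leucine, 4 on phenylalanine and 3 on methionine. Beside these counts and those of succinate dehydrogenase below, 4.6%, 9.88%, 7.55% and 14.3% of all probe sets were higher in the same order. KGD1, a subunit of oxoglutarate dehydrogenase, was 0.62 higher with phenylalanine (adjusted p = 0.000792) and 0.57 with methionine (0.000831). LPD1, the subunit it shares with other dehydrogenases, was higher with all 4 sources, by 0.34 with proline (0.0469) to 0.84 with phenylalanine (4.42e-05). Succinate, the end product of Uga2, is oxidised by succinate dehydrogenase, of whose 4 subunit genes 1 was higher on proline, 1 on leucine, 4 on phenylalanine and 4 on methionine. SDH1 was the gene that rose with all 4, by 0.35 with proline (0.0364) to 0.77 with phenylalanine (6.97e-05). For UGA2, the last step of the shunt, the difference between phenylalanine and asparagine was 0.03 (adjusted p = 0.933, 95% interval from -0.36 to 0.41).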

How the data were processed

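Affymetrix signals, a linear intensity for every probe set, were deposited by the authors, and the submitters' processing notes name MAS5 as their source. Version, scaling target and detection flags were not given in the sources used here. Per the labels each condition was run in triplicate, without saying whether as separate cultures, so p-values measure only the spread between arrays of a group, which may be technical. The number of arrays limits the precision.

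Of 9335 probe sets 60 controls were removed. Signals below 1.9, the 10th percentile, were set to it before taking log2, and a probe set was tested if it exceeded the 25th percentile of an array at least 3 times (7459 probe sets). Folds on this scale understate changes of dim probe sets. Where a group mean was at or below 9.9, its single arrays below that bound were raised to it, and the fold then reads "at least". Genes were named from the platform annotation, only where it gave 1 gene (6504 probe sets, against 328 with several and 2443 with none), and locus tags came from the RefSeq gene table.

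Group means over the 15 arrays were fitted with limma 3.58.1 (R 4.3.3, eBayes with trend), with an F test and 10 two-sided comparisons. P-values were Benjamini-Hochberg adjusted within each comparison over all probe sets, not across the 10 comparisons, at a threshold of 0.05. The fit was tested on simulated data. The members and gene lists were chosen with earlier results of these data known. Named genes were all members, list genes called against asparagine at least once, and the 3 genes with the highest correlation to each member. URE2 and LSC1 met none of these and were named after their values were seen. The alternatives were other scalings, floors, filters, weights, covariates and probe sets, and leaving out each array. No 2 arrays held identical values.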

Additional observations from a re-analysis of the deposited data

How the results depend on the processing

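Of the log2 differences recomputed, 1287 kept their side of the threshold, 76 no longer passed and 25 came to pass. Among the 1287, 50 changed sign, and these passed neither as reported nor in the alternative. A further 2 were of opposite sign to a difference that passed, both for UGA4 with phenylalanine against asparagine on its other probe sets (0.564 on 2411_s_at and 0.112 on 2410_g_at). Neither passed, and with asparagine at or below the bound of 9.9 on both, and phenylalanine too on 2410_g_at, their signs carry little weight. The falls of GAD1 against asparagine passed with leucine, phenylalanine and methionine in all 27 alternatives each, and with leucine ran from -3.33 to -3.07. Members passing against asparagine numbered 2 with proline and 1 with phenylalanine after quantile normalization, and 2 and 1 after median centring. With the filter at the 50th percentile, which UGA4 does not pass, they were 0 and 1. With only the 6 arrays of each comparison they were 2 and 1, and 1 for phenylalanine against leucine. Over all probe sets, calls in that setting fell from 1910 to 840 for phenylalanine against asparagine and from 955 to 293 for phenylalanine against leucine. With array weights 3 passed with proline against asparagine and 2 with leucine against proline. Calls over all probe sets then rose from 992 to 2095 and from 1442 to 2576. With the actin ratio as a covariate 3 members passed the F test and 2 with methionine against asparagine, where calls over all probe sets fell from 2876 to 1854. With the hybridisation control signal as a covariate 3 passed the F test, 0 with proline, 1 with leucine and 1 with methionine against asparagine, 1 with phenylalanine against proline and 1 with methionine against phenylalanine. Leaving out 1 array in turn, members passing ranged from 1 to 2 for proline against asparagine, 1 to 3 for leucine against asparagine, 2 to 5 for methionine against asparagine, 1 to 2 for leucine against proline, 1 to 2 for methionine against proline and 1 to 3 for methionine against leucine. The cause of these changes was not tested, apart from UGA4 at the 50th percentile.

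The lower ends came without the third leucine array for leucine against asparagine, without the third asparagine or the first methionine array for methionine against asparagine, and without the third methionine array for methionine against proline and leucine. The higher ends came for proline against asparagine without the second asparagine array, the third proline array or the second leucine array, and for leucine against proline without the third proline array.

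Over all probe sets, counts ranged with the setting from 330 to 2095 for proline against asparagine (992 as reported), 840 to 2398 for phenylalanine (1910) and 1854 to 3632 for methionine (2876). They ranged from 1057 to 2576 for leucine against proline (1442), 573 to 1838 for phenylalanine against proline (1547), 1232 to 2809 for methionine against proline (1685), 293 to 1513 for phenylalanine against leucine (955), 699 to 2582 for methionine against leucine (1397) and 621 to 1960 for methionine against phenylalanine (1660). The median of all probe sets with phenylalanine against asparagine was -0.16 as deposited, 0.01 after quantile normalization and 0.15 with median centring.

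Samples with the same array number correlated at -0.246 to 0.398 in their deviations from the group means. These correlations were above 0.1 in 10 of 30 pairs, against 13 of 60 pairs with different numbers. Of the 15 arrays, 5 correlated best with their own number. With group means of only 3 arrays, these values cannot tell whether arrays of the same number share more than the number. With the number as a replicate block 5 members passed the F test, and against asparagine 4 on methionine, 3 on leucine, 2 on phenylalanine and 1 on proline, as without it. The number of arrays and the dimness of UGA4, and of GAD1 with leucine, limit what could be detected, and 2410_g_at and 2418_at lie near background.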
